A study of Mus musculus with 6 samples.

Results

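The 71 genes described here are the replication-dependent histone cluster genes, the rows whose mouse gene symbol begins with Hist1h, Hist2h, Hist3h or Hist4h, out of 34745 genes in the RNA-seq tables of CD8+ Teff cells. They comprised 6 genes for the linker histone H1, 20 for H2A, 20 for H2B, 12 for H3 and 13 for H4. The Hist1 cluster held 56 of them, the Hist2 cluster 11, the Hist3 cluster 3 and the Hist4 locus 1. The study set 3 libraries of WT (C57BL/6J) cells beside 3 of *Scd-1*-/- cells, from B6.129-Scd1tm1Ntam/J mice that lack the fatty acid desaturase Scd-1 in every tissue. Splenic CD8+ T cells of male mice aged 6 to 8 weeks were stimulated with anti-CD3 (5 μg/mL), anti-CD28 (0.5 μg/mL) and IL-2 (100 U/mL) for 3 days. Both groups then stayed in IL-2 for 3 further days and were collected on day 6. The paper states in general that its results come from at least 3 independent experiments, without naming the libraries. Neither the labels nor the methods say whether the replicates came from separate mice, so the p-values measure only the spread between these libraries.

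Replication-dependent histone genes supply the proteins that package newly made DNA, and their mRNAs are abundant mainly in S phase. Unlike other mRNAs, most end in a short stem-loop, bound by the protein Slbp, in place of a poly(A) tail. A few cluster genes are also known to give polyadenylated transcripts in cells that have stopped dividing. RNA selected by its poly(A) tail would therefore hold only part of these transcripts, whereas total RNA would hold both forms. The labels name poly(A) RNA, Trizol and a VAHTS Universal V6 library kit, while the methods of the paper name a silica column for extraction and TruSeq Stranded Total RNA libraries. The levels below cannot be read as levels of all histone mRNA until this is settled. The kit named in the methods keeps the strand of the RNA, but whether strand was used in counting is not given in the sources used here, so counts of overlapping and antisense genes are uncertain.

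The stem-loop of the members is shown first, because it is the feature that sets these mRNAs apart. The letters are from GENCODE M21 transcripts (GRCm38), each on the strand of its gene, and the capitals mark the 16 bases of the histone 3′ stem-loop. The genes were chosen as the highest H1 member, an H2A member with a long annotated end, 2 H2B, 1 H3 and 2 H4 members.
*Hist1h1c*, chr13:23739505-23739534, plus strand: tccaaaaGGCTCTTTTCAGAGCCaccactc
*Hist3h2a*, chr11:58955165-58955194, plus strand: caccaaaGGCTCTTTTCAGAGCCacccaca
*Hist1h2bj*, chr13:22043631-22043660, plus strand: atccaaaGGCTCTTTTCAGAGCCacgcaca
*Hist1h2bb*, chr13:23747196-23747225, plus strand: acccaaaGGCTCTTTTAAGAGCCacccaca
*Hist1h3c*, chr13:23745040-23745069, minus strand: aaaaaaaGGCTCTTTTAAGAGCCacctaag
*Hist1h4d*, chr13:23581943-23581972, plus strand: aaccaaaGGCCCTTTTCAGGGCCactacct
*Hist1h4i*, chr13:22040959-22040988, minus strand: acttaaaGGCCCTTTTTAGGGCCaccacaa

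A stem-loop was found within 300 bases after the stop codon in 43 of the 50 members (86%) whose annotated transcript ran at least 16 bases past the stop. The same search found it in 9 of 20851 other protein-coding genes (0.0432%), one of which was *H2afx*, the gene of the DNA damage variant H2A.X. The spelling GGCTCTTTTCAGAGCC was shared by 23 members of types H1, H2A, H2B and H3. The spelling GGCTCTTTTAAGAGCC was present in 6 members, and the H4 genes had spellings of their own, with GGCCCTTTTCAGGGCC in 7 of them.

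Annotated transcripts differed in how far they went beyond this point. Counts divided by FPKM gave the gene length behind the deposited values. Rounded to whole bases, this length equalled that of an M21 transcript for 45 of the 68 members with a count. In 10 members this model ran at least 100 bases past the stem-loop (or past the stop codon where no stem-loop was found) and had AATAAA or ATTAAA, the letters that precede cleavage and polyadenylation, in its last 40 bases. These 10 members with a long end were *Hist1h1c*, *Hist3h2a*, *Hist3h2ba*, *Hist1h4i*, *Hist1h4a*, *Hist1h4j*, *Hist2h3c1*, *Hist2h4*, *Hist2h2be* and *Hist4h4*. In *Hist1h1c* the model went on for 840 bases past the stem-loop, and in *Hist3h2a* for 1643 bases. A further 18 models had a stem-loop and no long end, 14 had no stem-loop, and 29 were not classed because the model could not be matched or did not code for protein. In 13 of the 14 without a stem-loop the model ended within 2 bases of the stop codon, too short to hold one, and only that of *Hist2h3b* went on, for 37 bases. The grouping by long end was made after the values had been seen and received no test. *Hist1h2bc* (chromosome 13, 23684199 to 23692908, plus strand) was not classed. Its M21 model has 2 exons, 742 bases after the stop codon and no stem-loop in the searched bases.

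Start sites were compared in the RefSeq promoter table (GRCm38.p6, 250 bases before to 50 after the start), in which 60 of the 71 members were matched. The octamer ATTTGCAT, known from H2B promoters, was sought on both strands. It was present in 6 of 15 H2B and 7 of 17 H2A promoters, in 0 of the 28 promoters of the other types, and in 1.97% of all 27025 promoters. The H2A and H2B counts are not independent, because some neighbours share a single octamer that is counted for each. These were *Hist1h2aa* with *Hist1h2ba*, *Hist1h2ae* with *Hist1h2bg*, and *Hist1h2ah* with *Hist1h2bk*. CCAAT was in all 48 matched promoters of H1, H2A, H2B and H3 but in 3 of 12 H4 promoters (all promoters: 41.1%), and TATAAA was in 35 of 60 (all promoters: 15.7%). The octamers are shown for an H2B gene with a low p, for the H2A gene with a long end, and for a pair of genes that share a single window, with the octamer in capitals.
*Hist1h2bb*, chr13:23746634-23746661, plus strand: tgagtctcttATTTGCATaaagcctttg
*Hist3h2a*, chr11:58954556-58954583, minus strand: agccttcctaATTTGCATatgccttacc
*Hist1h2bk* and *Hist1h2ah*, chr13:22035781-22035808, plus strand: atttcactttATTTGCATacgaagttct

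The last window is an example of a divergent pair, in which the octamer lies on the gene strand of *Hist1h2bk*, 30 bases before its start, and on the opposite strand for *Hist1h2ah*. Such neighbours and copies make the genes hard to count apart. Of 69 members with an M21 transcript, 43 were more than 95% identical to their closest member of the same type, and 27 members were overlapped by another gene. Counts of such single members are uncertain, because how reads matching several genes were handled is not given in the sources used here.

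Each library held 14034479 to 15866216 counts, at which a count of 0 allows up to 3 counts (0.189 to 0.214 CPM, counting error only). The targeted gene *Scd1* had 4272, 3074 and 3761 counts in WT and 30, 36 and 20 counts in *Scd-1*-/- Teff. Of the T cell markers fixed for the check, *Cd8a*, *Cd8b1*, *Cd3e*, *Cd3d*, *Cd3g* and *Trac* lay between 27.9 and 593 FPKM (counts divided by gene length and by the total of the library). *Cd8a* had 43.1 to 47.6 FPKM in WT and 27.9 to 36.6 FPKM in *Scd-1*-/- libraries, without overlap. Its log2 fold change was -0.46 (edgeR adjusted p = 0.297, 0.063 with the replicate number as a block and 0.0166 in replicates 2 and 3 alone), and *Cd8b1* also had an adjusted p under 0.05 in replicates 2 and 3 alone (edgeR, 0.0382). The B cell markers *Ms4a1* and *Pax5* were at 0 in all libraries. Of the erythroid markers, *Alas2* and *Hbb-bs* were at 0 in all libraries, and the globin genes *Hba-a1*, *Hba-a2* and *Hbb-bt* had at most 6 counts in any library. The B cell receptor gene *Cd79b* had 9.41 to 10.7 FPKM in WT and 3.13 to 7.90 FPKM in *Scd-1*-/- libraries, while *Cd79a* had 2 counts or fewer. The log2 fold change of *Cd79b* was -1.02 (edgeR adjusted p = 0.387, and 0.0434 with the block). In replicates 2 and 3 alone it was lower with an edgeR adjusted p under 0.05, and it passed the study's thresholds given below. The summed FPKM of the myeloid markers was 6.16 to 10.7 and 20.3 to 70.5, mostly from *Fcer1g*, with *Lyz2* at 2 counts or fewer. *Cd14*, another myeloid marker, had 11, 5 and 4 counts in WT and 28, 42 and 40 counts in *Scd-1*-/- libraries, without overlap. *Fcer1g*, and *Cd14* in a fit of every gene with a count, passed the study's thresholds given below without the block, with log2 fold changes of 2.68 (edgeR adjusted p = 0.0988, 0.00195 with the block) and 2.41 (edgeR adjusted p = 0.0956, 0.0287 with the block). Of 2 rows named *Itgam*, one had 16, 0 and 5 counts in WT and 83, 13 and 16 counts in *Scd-1*-/- libraries (edgeR adjusted p = 0.524, 0.0464 with the block), and the other had 40, 9 and 11 and 0, 13 and 21 counts. The summed FPKM of the NK cell markers was 0.501 to 1.16 and 1.82 to 9.39, mostly from *Klrb1c* (edgeR adjusted p = 0.121, 0.00591 with the block), with *Ncr1* at 5 counts or fewer. That of the CD4 T cell markers was 6.15 to 12.2 and 8.01 to 11.2, mostly from *Zbtb7b*, and that of the platelet markers was at most 0.465 in any library. *Cd4* itself had 8, 24 and 12 counts in WT and 5, 2 and 1 counts in *Scd-1*-/- libraries, without overlap (log2 fold change -2.49, edgeR adjusted p = 0.344 in the fit of every gene with a count), and *Cd40lg* had 0, 5 and 2 counts in WT and 0 in each *Scd-1*-/- library. The part of these genes in the results below was not tested.

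The histone members took a small share of each library. They held 0.0234%, 0.0184% and 0.0150% of all counts in WT replicates 1, 2 and 3, and 0.0307%, 0.0177% and 0.0174% in *Scd-1*-/- replicates 1, 2 and 3. The WT mean was 0.0190% ± 0.00423 (SD, n = 3). That of *Scd-1*-/- Teff was 0.0219% ± 0.00754 (SD, n = 3), so the groups overlapped and replicate 1 was the highest library of each genotype. Without the H1 gene *Hist1h1c*, the share was 0.01589%, 0.01635% and 0.01279% in WT and 0.01631%, 0.0119% and 0.0115% in *Scd-1*-/- libraries. The groups again overlapped, and replicate 1 was no longer the highest in WT. In these bulk libraries, the number of cells in S phase and the amount of histone mRNA per cell cannot be told apart.

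The counts of the members with a long end were mostly those of a single gene, *Hist1h1c*, in replicate 1 of WT and in all *Scd-1*-/- libraries. In WT, the 10 members held 128, 51.4 and 54.3 CPM (counts scaled to the library total) in replicates 1, 2 and 3, and in *Scd-1*-/- Teff 196, 96.2 and 89.4. Their share of the member counts was 54.7%, 27.9% and 36.2% in WT and 63.9%, 54.2% and 51.3% in *Scd-1*-/- libraries. The other 61 members held 106, 133 and 95.8 CPM in WT and 111, 81.2 and 85.0 in *Scd-1*-/- libraries. Without *Hist1h1c*, the long-end members held 52.8, 30.5 and 32.1 CPM in WT and 52.4, 37.8 and 29.9 CPM in *Scd-1*-/- libraries. Replicate 1 was then still the highest library of each genotype, and the groups overlapped. Among the other 61 members, replicate 1 was the highest library in *Scd-1*-/- Teff but not in WT.

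**Figure D1:**
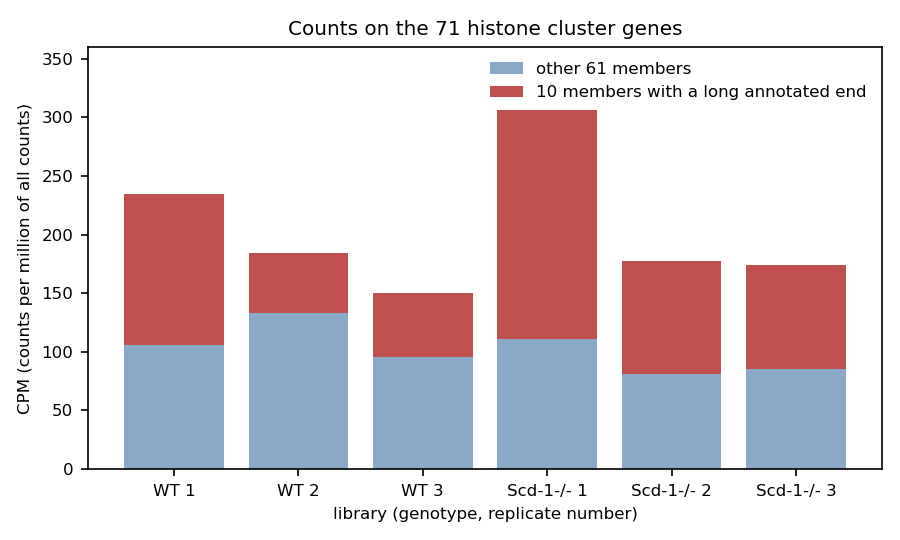
CPM (vertical axis) of the 71 histone cluster genes in each of the 6 libraries (horizontal axis), with the 10 members with a long annotated end in red and the other 61 in blue. The red segments are tallest in replicate 1 of each genotype (128 in WT, 196 in *Scd-1*-/-).

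Measured per length, the members were low beside the genes that replicate DNA. The median over the 71 members of the mean FPKM was 2.51, that over the 48 members with a mean of at least 1 FPKM was 3.43, and 5 members had a mean of at least 10 FPKM, namely *Hist1h1c*, *Hist1h4i*, *Hist1h3c*, *Hist1h2ao* and *Hist1h2bc*. The median of all 9627 genes with a mean of at least 1 FPKM was 7.25, and that of a list of 30 S phase genes was 41.6. The members' FPKM summed to 306, 304 and 234 in WT and to 352, 229 and 235 in *Scd-1*-/- Teff. The 11 replacement histone variants, which are outside the clusters and mostly known for polyadenylated mRNAs, summed to 825, 547 and 506 in WT and 814, 538 and 563 in *Scd-1*-/- Teff. Cluster genes thus held 27.1% to 35.7% of the summed FPKM of both sets. The variants include *H2afx*, in which a stem-loop was found, with 215, 139 and 116 FPKM in WT and 205, 132 and 131 FPKM in *Scd-1*-/- Teff. A total of 23 members did not reach a mean of 1 FPKM, and 3 of them (*Hist1h2aa*, *Hist1h2al* and *Hist2h2ab*) had no count in any library. The testis genes *Hist1h1t* and *Hist1h2ba* were also at 3 counts or fewer in each library. The symbol *Hist2h2bb* stood for 2 rows, one of which M21 gives as a noncoding RNA, and *Hist3h2bb-ps*, *Hist1h2aj* and *Hist1h2al* are pseudogenes in M21.

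The counts of the 9627 genes were compared between the 3 WT and 3 *Scd-1*-/- libraries by the quasi-likelihood test of edgeR. The study's thresholds ask for an unadjusted p under 0.001 and a log2 fold change (*Scd-1*-/- over WT) of 1 or more in either direction. They were passed by 0 of the 48 members tested, beside 0.738% of all genes tested. An adjusted p (Benjamini-Hochberg over all genes tested) under 0.05 was reached by 0 members, beside 0.114% of all genes. An unadjusted p under 0.05 was reached by 8 members (16.7%), beside 10.1% of all genes, with 6 of them lower (all genes: 4.68%) and 2 higher (all genes: 5.42%) in *Scd-1*-/- Teff. DESeq2 likewise called 0 members by either rule. The fitted value was below 0 for 34 of 48 members, beside 50.1% of all genes, and the median log2 fold change was -0.36, beside a median of 0.00 over all genes. By histone type, this median was -0.29 for H1, -0.24 for H2A, 0.01 for H2B, -0.48 for H3 and -0.36 for H4. All 9 H3 members tested had a value below 0, from -0.90 to -0.32. Their transcripts were 94.7% to 99.3% identical to the closest H3 member, so the 9 signs are not independent. In replicate 1, *Hist1h3a*, *Hist1h3b*, *Hist1h3c*, *Hist1h3e* and *Hist2h3c2* were higher in *Scd-1*-/- Teff, by 0.18 to 0.66 on the log2 scale. The other H3 members tested were lower there. *Hist2h3c2* reached 0.1 among the fits that left out 1 library. With a minimum of 5 FPKM, the median of the members left was -0.12.

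Same-numbered libraries of the genotypes deviated together (r = 0.595, 0.306 and 0.470), so the fit was repeated with the replicate number as a block. However, *Scd-1*-/- replicate 2 went further with WT replicate 3 (r = 0.380) than with WT replicate 2. The pairing of replicates 2 and 3 is therefore uncertain, and what the replicate number stands for is not given. With the block, 2 members passed the study's thresholds, beside 1.91% of all genes, and 3 had an adjusted p under 0.05, beside 4.7% of all genes. *Hist1h1c* was higher by both rules, *Hist2h2aa1* was lower by both, and *Hist1h1a* was lower by the adjusted p alone. The median of the 48 members was -0.32 with the block. In replicates 2 and 3 alone, 1 member (*Hist1h1c*) passed the thresholds, beside 3.83% of all genes, and 4 (*Hist1h1c*, *Hist1h2bc*, *Hist1h1b* and *Hist1h1a*) had an adjusted p under 0.05, beside 12.6% of all genes. The groups did not overlap in FPKM for 11 members (22.9%), beside 16% of all genes tested, with 9 of the 11 lower (all genes: 8.32%) and 2 higher (all genes: 7.67%) in *Scd-1*-/- Teff.

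**Figure D2:**
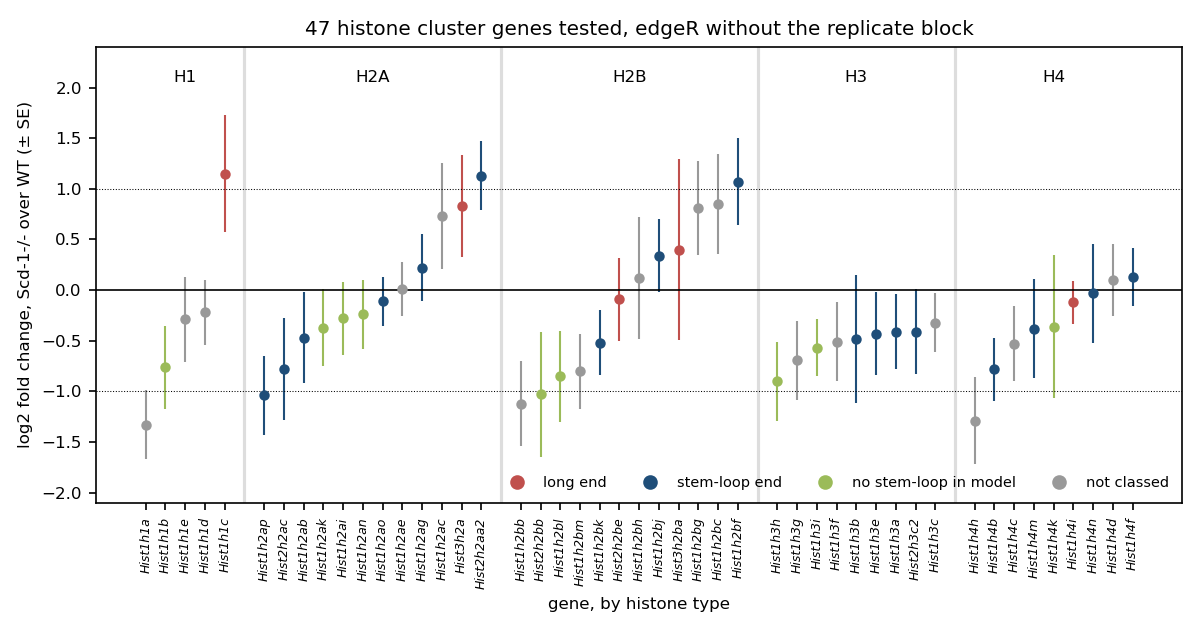
Log2 fold change of *Scd-1*-/- over WT (vertical axis) with its standard error for 47 of the 48 members tested, ordered within H1, H2A, H2B, H3 and H4 and coloured by the annotated 3′ end. Dotted lines mark a log2 fold change of 1 in size, and *Hist2h2aa1*, detected in 1 library only, is left out. All 9 H3 members, which are closely similar in sequence, lie below 0 in this fit.

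Of the linker histones, which bind DNA between nucleosomes, *Hist1h1c* (histone H1.2, chromosome 13, 23738808 to 23740367, plus strand) had the highest mean count of all members. Its FPKM was 48.3, 13.4 and 14.2 in WT replicates 1, 2 and 3, and 91.9, 37.5 and 38.1 in *Scd-1*-/- replicates 1, 2 and 3. Each *Scd-1*-/- library was above the WT library of the same number, by 0.93, 1.49 and 1.49 on the log2 scale in TMM-scaled counts (the FPKM hold no such scaling), yet the groups overlapped because WT replicate 1 was higher than *Scd-1*-/- replicates 2 and 3. Without the block, the log2 fold change was 1.15 (standard error 0.58, edgeR adjusted p = 0.567). With the block, it was 1.29 (standard error 0.15, edgeR adjusted p = 0.00591), and in replicates 2 and 3 alone it was 1.49 (edgeR adjusted p = 3.74e-04). Leaving out WT replicate 1 moved the unblocked value to 2.06, and leaving out *Scd-1*-/- replicate 1 moved it to 0.58. *Hist1h1c* alone held 32.2%, 11.3% and 14.8% of the member counts in WT and 46.8%, 32.9% and 34.1% in *Scd-1*-/- libraries.

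*Hist1h1a* (histone H1.1, chromosome 13, 23763666 to 23764406, plus strand) went the other way. Its FPKM was 5.03, 8.88 and 5.91 in WT and 2.80, 2.98 and 1.96 in *Scd-1*-/- Teff, so each *Scd-1*-/- library was below each WT library. The log2 fold change was -1.33 (standard error 0.34, edgeR adjusted p = 0.223), and -1.31 with the block (edgeR adjusted p = 0.0449). It had the smallest unadjusted p of the 48 members without the block. *Hist1h1b* (histone H1.5) had 7.54, 9.78 and 7.76 FPKM in WT and 7.78, 2.48 and 4.24 FPKM in *Scd-1*-/- Teff. Its groups overlapped through *Scd-1*-/- replicate 1, and its log2 fold change of -0.76 (standard error 0.41, edgeR adjusted p = 0.599) became -1.33 in replicates 2 and 3 alone (edgeR adjusted p = 0.0306). Leaving out 1 library, the unblocked value ranged from -1.28 (without *Scd-1*-/- replicate 1) to -0.45 (without *Scd-1*-/- replicate 2).

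The makeup of the cluster H1 transcripts therefore differed between the libraries. *H1f0*, a linker histone gene outside the clusters, is not counted in it. Its FPKM was 156, 72.9 and 68.0 in WT and 181, 60.7 and 65.8 in *Scd-1*-/- Teff. The 6 cluster genes together summed to less in each library, at 68.45, 44.0 and 37.1 in WT and 112, 48.1 and 52.5 in *Scd-1*-/- Teff. *Hist1h1c* has a long annotated end, so its share may also depend on the RNA selection. *Hist1h1c* held 70.5%, 30.4% and 38.3% of the summed FPKM of the 6 H1 genes in WT and 81.8%, 77.8% and 72.6% in *Scd-1*-/- Teff. *Hist1h1a* held 7.35%, 20.2% and 15.9% in WT and 2.49%, 6.19% and 3.74% in *Scd-1*-/- Teff. The groups did not overlap for either share, but WT replicate 1 lay closer to the nearest *Scd-1*-/- library than to WT replicates 2 and 3 in both. These shares rest on the values tested above and received no test of their own.

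**Figure D3:**
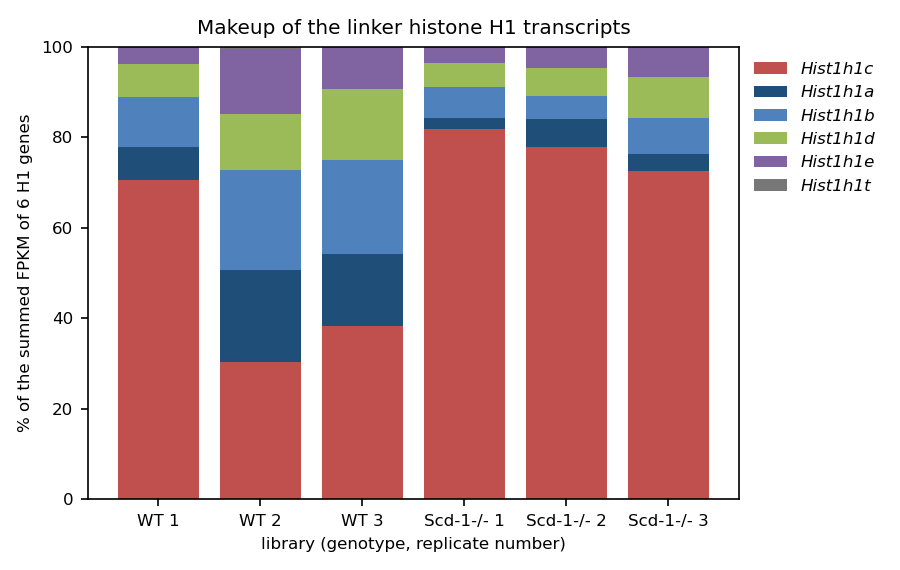
Share of each cluster H1 gene (vertical axis, % of the summed FPKM of the 6 cluster H1 genes) in the 6 libraries (horizontal axis). Linker histone genes outside the clusters, such as *H1f0*, are not included. *Hist1h1c* (red) fills 72.6% to 81.8% of the *Scd-1*-/- libraries, 70.5% of WT replicate 1, and 30.4% and 38.3% of WT replicates 2 and 3.

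Among the genes of H2A, a core histone, *Hist1h2ao* and *Hist1h2ae* had the highest levels. *Hist1h2ao* had 11.1, 14.3 and 10.7 FPKM in WT and 10.2, 10.6 and 12.1 FPKM in *Scd-1*-/- Teff, with overlapping groups (log2 fold change -0.11, standard error 0.24). *Hist1h2ae* had 5.88, 5.89 and 6.27 FPKM in WT and 6.70, 4.78 and 6.30 FPKM in *Scd-1*-/- Teff (log2 fold change 0.01, standard error 0.27). Neither difference was larger than the spread between libraries. *Hist1h2ap* had 1.78, 3.55 and 2.19 FPKM in WT and 1.20, 1.18 and 1.18 FPKM in *Scd-1*-/- Teff, without overlap (log2 fold change -1.04, standard error 0.39, edgeR adjusted p = 0.434). Its transcript was 98.7% identical to that of *Hist1h2an*.

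The H2A genes *Hist2h2aa1* and *Hist2h2aa2* have transcripts that were 100% identical over the shorter, so their counts cannot be assigned to either with certainty. *Hist2h2aa1* had 79, 0 and 0 counts in WT and 0, 0 and 0 counts in *Scd-1*-/- libraries. With a floor of 3 counts over the 3 *Scd-1*-/- libraries together, not in each, this is at least 27.6-fold lower in *Scd-1*-/- Teff, and it rests on WT replicate 1 alone, since without it no library had a count. *Hist2h2aa2* had 10, 16 and 18 counts in WT and 34, 35 and 31 counts in *Scd-1*-/- libraries (log2 fold change 1.13, standard error 0.34, edgeR adjusted p = 0.297). The sum of the pair was 89, 16 and 18 counts in WT and 34, 35 and 31 counts in *Scd-1*-/- libraries, so that the groups overlapped once both genes were added up.

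*Hist3h2a*, an H2A gene with a long end on chromosome 11 (58954685 to 58956830, plus strand), overlaps *Trim17*. Its FPKM was 4.12, 1.40 and 1.90 in WT and 6.85, 3.40 and 2.79 in *Scd-1*-/- Teff, highest in replicate 1 of both. The log2 fold change was 0.83 (standard error 0.50, edgeR adjusted p = 0.647), and 0.87 with the block (edgeR adjusted p = 0.0697). Leaving out WT replicate 1 moved the unblocked value to 1.44, and leaving out *Scd-1*-/- replicate 1 moved it to 0.33. *Hist3h2ba*, its H2B neighbour, had 9.99, 1.97 and 2.18 FPKM in WT and 13.9, 1.96 and 2.67 FPKM in *Scd-1*-/- Teff. Its values therefore followed the replicate number more than the genotype. It was named after its values had been seen.

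Of the H2B genes, *Hist1h2bc* had the highest mean level. Its FPKM was 13.1, 4.84 and 4.59 in WT and 19.9, 9.44 and 11.0 in *Scd-1*-/- Teff. As with *Hist1h1c*, every *Scd-1*-/- library was above the WT library of its number, and replicate 1 was highest in both genotypes. The log2 fold change was 0.85 (standard error 0.49, edgeR adjusted p = 0.634), and 0.94 with the block (edgeR adjusted p = 0.0552). In replicates 2 and 3 alone it was 1.15 (edgeR adjusted p = 0.0197). The unblocked value was 1.55 without WT replicate 1 and 0.45 without *Scd-1*-/- replicate 1. *Hist1h2bj*, which has a stem-loop end, had 5.13, 8.16 and 6.68 FPKM in WT and 11.9, 7.20 and 5.72 FPKM in *Scd-1*-/- Teff (log2 fold change 0.34, standard error 0.36). Its value changed sign to -0.17 in replicates 2 and 3 alone. *Hist1h2bb*, whose stem-loop and octamer are shown above, had 2.92, 5.52 and 2.96 FPKM in WT and 1.85, 2.20 and 1.12 FPKM in *Scd-1*-/- Teff, without overlap (log2 fold change -1.12, standard error 0.42, edgeR adjusted p = 0.438).

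*Hist1h3c* and *Hist1h3i* were the highest of the genes for H3, the histone that carries many of the studied tail modifications. *Hist1h3c* had 15.9, 23.8 and 14.4 FPKM in WT and 18.0, 12.3 and 12.1 FPKM in *Scd-1*-/- Teff, with overlapping groups (log2 fold change -0.32, standard error 0.29). Leaving out 1 library, its value ranged from -0.54 (without *Scd-1*-/- replicate 1) to -0.08 (without WT replicate 2). *Hist1h3i* had 7.38, 9.19 and 7.01 FPKM in WT and 5.16, 4.66 and 5.83 FPKM in *Scd-1*-/- Teff, without overlap (log2 fold change -0.57, standard error 0.28, edgeR adjusted p = 0.556). The 12 H3 genes together summed to 47.7, 71.0 and 44.9 FPKM in WT and to 44.0, 37.8 and 34.2 FPKM in *Scd-1*-/- Teff, where the lowest WT sum was just above the highest *Scd-1*-/- sum. The summed FPKM of each of the other 4 histone types overlapped between the groups, as for H4, with 85.9, 84.5 and 64.9 in WT and 73.3, 61.8 and 61.6 in *Scd-1*-/- Teff.

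Of the H4 genes, whose products pair with H3 in the nucleosome, *Hist1h4i* was the highest and has a long end. Its FPKM was 41.5, 28.8 and 30.4 in WT and 31.6, 34.2 and 25.7 in *Scd-1*-/- Teff (log2 fold change -0.12, standard error 0.21, edgeR adjusted p = 0.911). Its difference was smaller than the spread between libraries. *Hist1h4d* had 8.89, 10.9 and 6.26 FPKM in WT and 12.4, 6.13 and 8.82 FPKM in *Scd-1*-/- Teff (log2 fold change 0.10, standard error 0.36). *Hist1h4h* had 2.93, 2.56 and 1.49 FPKM in WT and 0.679, 1.20 and 0.933 FPKM in *Scd-1*-/- Teff, without overlap (log2 fold change -1.29, standard error 0.43, edgeR adjusted p = 0.376). It had 5 to 21 counts per library, so counting error is large.

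**Figure D4:**
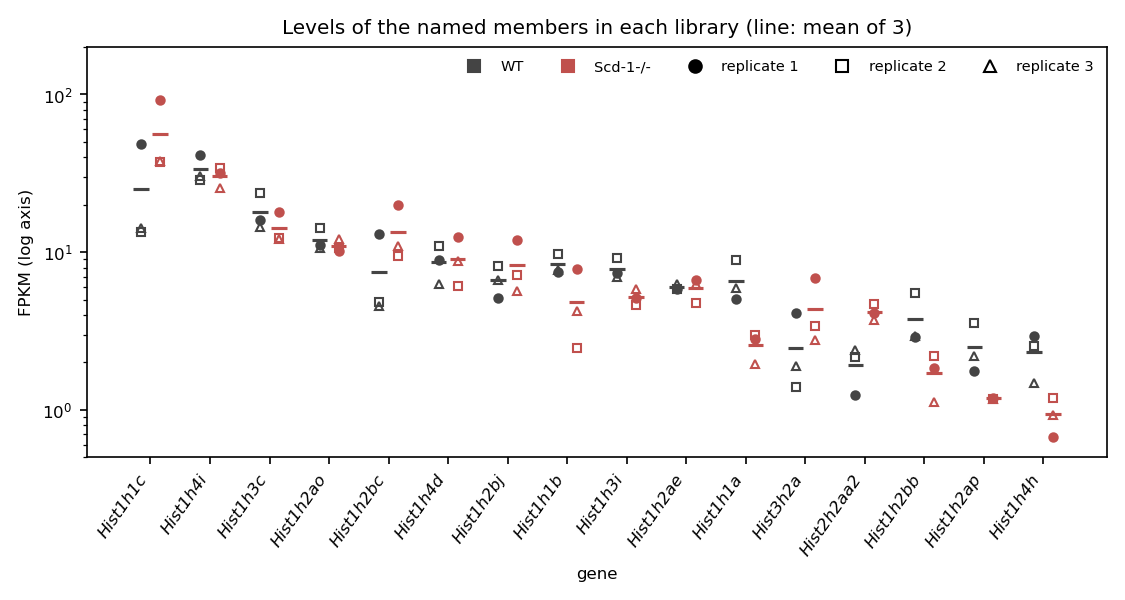
FPKM (vertical log axis) of 16 named members in the 3 WT (grey) and 3 *Scd-1*-/- (red) libraries, with the symbol giving the replicate number and the line the mean of 3. For *Hist1h1c*, *Hist1h2bc* and *Hist3h2a*, replicate 1 (filled) is the highest in both genotypes, and for *Hist1h1a* all 3 red points lie below the grey ones.

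The level of replicate 1 was examined over all members. In 7 of the 48 members tested (14.6%), replicate 1 was the highest of the 3 libraries in both genotypes, beside 28.3% of all genes tested. Of the 5 members with a long end that were tested, 4 were of this kind, with *Hist1h4i* as the exception. *Hist2h2be*, an H2B gene with a long end and no stem-loop in its searched bases, was among the 4, with 2.19, 1.12 and 1.02 FPKM in WT and 1.86, 1.16 and 0.986 FPKM in *Scd-1*-/- Teff. Of 10 replacement variants tested, replicate 1 was the highest of both genotypes in 7, among them the linker histone gene *H1f0*, with 156, 72.9 and 68.0 FPKM in WT and 181, 60.7 and 65.8 FPKM in *Scd-1*-/- Teff. The summed FPKM of the 30 S phase genes was lowest in replicate 1 of both, at 1534, 1931 and 1951 in WT and 1373, 1664 and 1658 in *Scd-1*-/- Teff. Replicate 1 was the lowest in both genotypes for 21 of these 30 genes, beside 29% of all genes tested, and the highest in both for 2, *Cdt1* and *E2f2*. What set replicate 1 apart was not tested.

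A total of 20 members had a count but a mean below 1 FPKM, and were tested in a fit of every gene counted at least once (17192 genes). Of these, 0 had an adjusted p under 0.05 without or with the block, beside 0.489% and 4.36% of all genes in these fits. An unadjusted p under 0.05 was reached by 1 of them, the H4 gene *Hist1h4a* (8.57% of all genes). It had 9, 15 and 10 counts in WT and 4, 4 and 3 counts in *Scd-1*-/- libraries, a log2 fold change of -1.66 (standard error 0.70, edgeR adjusted p = 0.539). It was named after its values had been seen.

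Genes outside the clusters were read from lists written with earlier results known. Of the 11 replacement variants, 10 were tested, 0 passed either rule with or without the block, and their median log2 fold change was 0.05. The shares of all genes that passed were, as above, 0.738% by the thresholds and 0.114% by the adjusted p, and 1.91% and 4.7% with the block, and they apply to each list below. An unadjusted p under 0.05 was reached by 1 of the 10 (all genes: 10.1%), *H2afz*, the gene of H2A.Z, with 8.78, 9.31 and 5.82 FPKM in WT and 11.9, 14.1 and 17.2 FPKM in *Scd-1*-/- Teff (log2 fold change 0.87, standard error 0.24, edgeR adjusted p = 0.26). The lowest *Scd-1*-/- library was above the highest WT library, and in replicates 2 and 3 alone the log2 fold change was 1.08 (edgeR adjusted p = 0.0189), the 1 call among the 10 in that fit, beside 12.6% of all genes. *H2afx* had 215, 139 and 116 FPKM in WT and 205, 132 and 131 FPKM in *Scd-1*-/- Teff. *H3f3b*, which codes for the H3.3 protein, had 120, 85.3 and 89.6 FPKM in WT and 122, 101 and 103 FPKM in *Scd-1*-/- Teff. In neither gene, nor in *H1f0*, was the difference larger than the spread between libraries.

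Factors that make, process or degrade histone mRNA formed a list of their own. Of 16 tested among 17, 0 passed either rule with or without the block, 0 had an unadjusted p under 0.05 (all genes: 10.1%), and the median was -0.01. *Slbp*, the stem-loop binding protein, had 10.3, 9.39 and 10.2 FPKM in WT and 8.37, 10.4 and 10.3 FPKM in *Scd-1*-/- Teff. *Npat*, the coactivator of the histone clusters, had 2.81, 1.83 and 2.34 FPKM in WT and 3.70, 1.96 and 2.10 FPKM in *Scd-1*-/- Teff. The highest of the list were *Cpsf3*, the endonuclease that cuts histone pre-mRNA, at 42.8 to 54.6 FPKM, the cap-binding gene *Ncbp1* at 30.3 to 46.6 FPKM, and the RNA decay helicase gene *Upf1* at 27.3 to 50.6 FPKM. Of the histone chaperones, which carry histones to DNA, 10 of 11 were tested, 0 passed either rule with or without the block, 0 had an unadjusted p under 0.05 (all genes: 10.1%), and the median was -0.09. In replicates 2 and 3 alone, 1 of the 10 chaperone genes (all genes: 12.6%) had an adjusted p under 0.05, *Nasp*, which binds H3 and H4 and was higher (log2 fold change 0.47, edgeR adjusted p = 0.039), and 0 of the mRNA factors did. The highest chaperones were *Asf1b*, *Rbbp4* and *Chaf1a*, at 37.1 to 66.6 FPKM.

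S phase activity was read from 30 genes of DNA replication. All were tested, 0 passed either rule with or without the block, and 19 of 30 had a value below 0 (all genes: 50.1%), with a median of -0.15. *Mcm5*, a subunit of the replicative helicase, had 221, 311 and 264 FPKM in WT and 176, 216 and 196 FPKM in *Scd-1*-/- Teff, without overlap (log2 fold change -0.42, standard error 0.15, edgeR adjusted p = 0.407, and 0.0529 with the block). *Rrm1*, a subunit of ribonucleotide reductase, had 112, 160 and 168 FPKM in WT and 94.6, 145 and 151 FPKM in *Scd-1*-/- Teff. *Pcna*, the sliding clamp of the polymerases, had 110, 136 and 135 FPKM in WT and 102, 133 and 146 FPKM in *Scd-1*-/- Teff. An unadjusted p under 0.05 was reached by 4 of the 30, *Mcm5*, *Uhrf1*, *Gins2* and *Cdt1*, all lower in *Scd-1*-/- Teff (all genes: 10.1% in either direction, 4.68% lower). In replicates 2 and 3 alone, an edgeR adjusted p under 0.05 was reached by 7 of the 30, all lower, beside 12.6% of all genes. These were *Cdt1*, *Uhrf1*, *Cdc6*, *Gins2*, *Mcm5*, *Mcm2* and *Mcm7*, which act in origin licensing, in the helicase or, for *Uhrf1*, in maintaining DNA methylation, with adjusted p from 0.0134 (*Uhrf1*) to 0.0443 (*Mcm5*).

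Of 18 G2/M genes, 0 passed either rule without the block and 3 had an unadjusted p under 0.05 (all genes: 10.1%), with a median of -0.02. With the block, 2 had an adjusted p under 0.05, beside 4.7% of all genes: *Cdc20*, an activator of the anaphase-promoting complex, was lower (log2 fold change -0.52, edgeR adjusted p = 0.0271) and the kinetochore motor gene *Cenpe* was higher (0.69, edgeR adjusted p = 0.0345). *Cdc20* had 139, 211 and 189 FPKM in WT and 104, 133 and 131 FPKM in *Scd-1*-/- Teff. In replicates 2 and 3 alone, 1 of the 18 had an adjusted p under 0.05, again *Cdc20*, beside 12.6% of all genes. The other leading genes of this list, *Ccnb2* and *Ube2c*, had 76.1 to 145 FPKM over the 6 libraries.

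**Figure D5:**
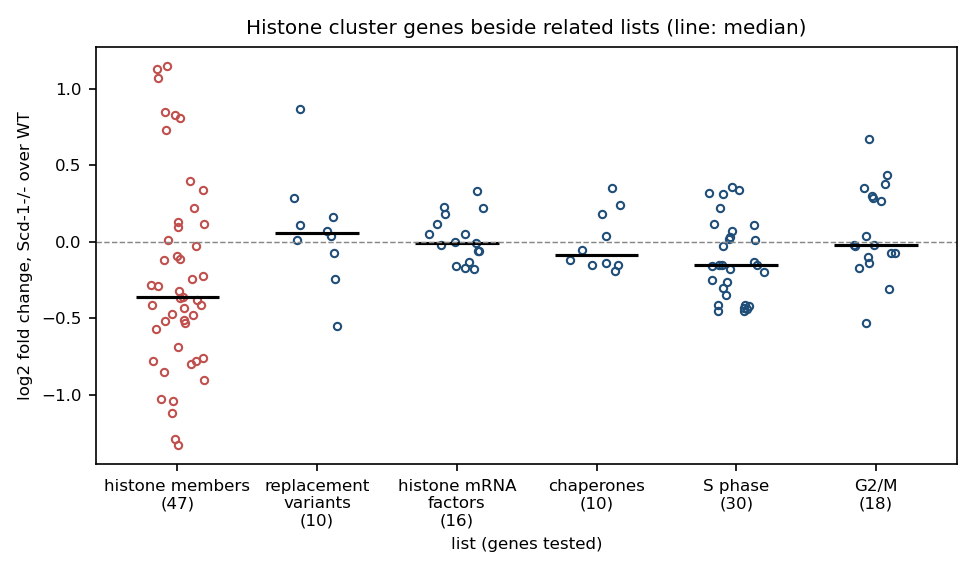
Log2 fold change of *Scd-1*-/- over WT (vertical axis) for 47 histone cluster genes tested (*Hist2h2aa1* left out) and for the tested genes of 5 related lists (horizontal axis, number tested in brackets), with the median as a line. The medians are -0.36 for the histone cluster genes, 0.05 for the replacement variants, -0.01 for the histone mRNA factors, -0.09 for the chaperones, -0.15 for S phase and -0.02 for G2/M.

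RNA selection was looked at through 12 RNAs that carry no poly(A) tail, of which 7 were among the genes in the tables. *Rpph1*, the RNA of RNase P, had 5.79, 7.59 and 8.60 FPKM in WT and 5.44, 8.45 and 12.7 FPKM in *Scd-1*-/- Teff. *Rmrp*, the RNA of RNase MRP, had 0 to 9 counts, the telomerase RNA *Terc* had 0 to 10 counts, and the vault RNA *Vaultrc5* had 0 to 3 counts. *Rny1*, *Rny3* and *Rprl3* were listed at 0 in all 6 libraries. Most of these RNAs were thus at or near 0 in both genotypes, and which of the named library kits was used was not tested.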

How the data were processed

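RNA-seq tables of 6 libraries were used, 3 WT and 3 *Scd-1*-/-, grouped by their titles. The authors aligned reads with HISAT2 (GRCm38, per the labels), counted them per gene with StringTie 1.3.0, and deposited raw counts and FPKM. The paper names TMM normalization before the conversion to FPKM. The deposited FPKM, however, followed from counts, gene length and library total without a TMM factor. Tests were run on the deposited counts with edgeR 4.0.16 (estimateDisp, glmQLFit, glmQLFTest, TMM scaling), on genes reaching 1 FPKM on average, and the standard error was the fold change divided by the square root of F. DESeq2 1.42.0 and limma 3.58.1 were alternatives. The replicate number was used as a block because, over the 9627 genes, same-numbered libraries deviated from their group means together (r = 0.595, 0.306 and 0.470), although crossed pairs of replicates 2 and 3 reached 0.380. In simulated counts (9627 genes, 200 given a log2 change of 2), edgeR found 181 with 6 false calls, and 178 with 11 false calls with the block. The simulated counts held no replicate effect, so they cannot show how the block acts on libraries that have one. The planted change was also larger than that of any member tested other than *Hist2h2aa1*. Identity between transcripts was computed with edlib. The stem-loop was searched in GENCODE M21 transcripts in place of a genome, and the protein comparison planned was not made.

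Members named with values are the 2 highest of each histone type, those called in either fit, the 5 with the smallest p and the 5 with the highest count; of each list, the 3 highest genes and any called are named, and other genes were chosen after their values were seen. The members and lists were chosen with earlier results of these data known. An exact permutation test of 3 libraries against 3 cannot give a p under 0.1. Some markers of the cell type lists are not reported here.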

Additional observations from a re-analysis of the deposited data

How the results depend on the processing

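Without the block, 0 members were called by either rule. This held for all genes with a count, for genes of at least 5 FPKM, with median-ratio scaling, DESeq2, limma on log2(FPKM + 1) or log2(FPKM + 0.1), and without any 1 library. With the replicate block, 2 passed the study's thresholds and 3 had an adjusted p under 0.05; in replicates 2 and 3 alone, these were 1 and 4. The median of -0.36 moved to -0.12 with a minimum of 5 FPKM, which left 16 members, and to -0.51 in replicates 2 and 3. Without 1 library, it ranged from -0.50 (without *Scd-1*-/- replicate 1) to -0.20 (without WT replicate 2). Of all genes, 71 passed the thresholds, against 148 without a minimum, 43 with a minimum of 5, 161 with DESeq2, 184 with the block, 369 in replicates 2 and 3, and 25 to 163 without 1 library. The mean share of the members was 0.0787% (WT) and 0.0718% (*Scd-1*-/-) of the summed FPKM, and 0.0112% (WT) and 0.0151% (*Scd-1*-/-) of counts without members over 95% identical. The order of the groups differed between the counts and the FPKM.

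Of 26 genes tested one by one, *Fcer1g* fell short of the thresholds in 7 alternatives (both limma fits, and without any 1 library other than *Scd-1*-/- replicate 1), at log2 fold changes of 2.35 to 2.90. Among all 26, the sign turned in 15 alternatives, all for genes not called. In replicates 2 and 3, these were *Hist1h2bj* (-0.17), *Hist1h4i* (0.05), *Hist1h4d* (-0.16) and *Hist1h2ae* (-0.09). Without *Scd-1*-/- replicate 1, they were *Hist1h2bj* (-0.02), *Hist1h4d* (-0.19), *Hist1h2ae* (-0.09) and *Hist3h2ba* (-1.02). Leaving out 1 library, *Hist1h2bj* ranged up to 0.55, *Hist1h4d* up to 0.31, *Hist1h2ae* up to 0.13 and *Hist3h2ba* up to 1.62, and *Hist1h4i* down to -0.22. *Hist1h2ao* turned without WT replicate 2 (0.03), *Hist1h4i* without WT replicate 1 (0.08), and *Hist1h4d* without WT replicate 3 (-0.10). *Hist1h2ae* also turned in both limma fits (-0.03), without WT replicate 2 (-0.01) and without *Scd-1*-/- replicate 3 (-0.04). The cause was not tested. Low counts limit most single members.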
